A study of Caenorhabditis elegans with 2 samples.

Results

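The genes described here are 10 core members of the pathway that induces the vulva of Caenorhabditis elegans: lin-3, let-23, sem-5, let-60, ksr-1, lin-45, mek-2, mpk-1, lin-1 and lin-31. They were taken by name from 19973 nuclear protein-coding genes, and all 10 were found in the annotation. For each gene, the summits of NHR-25 ChIP-seq peaks were collected inside the gene and up to 5 kb upstream of its annotated 5′ end. NHR-25 is a nuclear hormone receptor of the SF-1/FTZ-F1 family. The data are 2 biological replicates of a single group, L3 larvae of strain OP33, with the genotype unc-119(ed3) III; wgIs33. This strain carries a transgene that expresses NHR-25 with a C-terminal tag of GFP and FLAG; larvae of both sexes were pooled and chromatin was sheared by sonication. There was no second condition, so the results are positions and heights of peaks, set beside those of all other genes, and no test between conditions was possible.

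In vulval induction, the anchor cell of the gonad secretes LIN-3, an EGF-type ligand, which activates the receptor tyrosine kinase LET-23 on the vulval precursor cells. The signal runs through the adaptor SEM-5 and the Ras GTPase LET-60 to the kinases LIN-45 (Raf), MEK-2 (MEK) and MPK-1 (ERK), with KSR-1 as a scaffold, and ends at transcription factors such as LIN-1 and LIN-31. The same kinase cascade also acts in other tissues. The chromatin came from whole larvae, in which the vulval precursor cells and the anchor cell are few among many cells, so the cells that gave a peak are not known.

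Of the 10 genes, 7 had at least 1 summit in the gene or the 5 kb upstream in the list that the authors cut by irreproducible discovery rate (IDR), against 29.9% of all nuclear protein-coding genes. These were sem-5, let-60, lin-45, mek-2 (with 2 summits), mpk-1, lin-1 and lin-31. lin-3, let-23 and ksr-1 had none. Of the 8 summits, 6 lay inside the gene, in an intron of at least 1 annotated transcript in each case, and 2 lay upstream, at sem-5 and let-60. An IDR summit inside the gene was found for 5 of the 10 genes, against 5.77% of all genes. A summit in the promoter window, which covers 2000 bp before and 200 bp after the 5′ end, was found for 2 of the 10, against 18.4% of all genes.

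**Figure D1:**
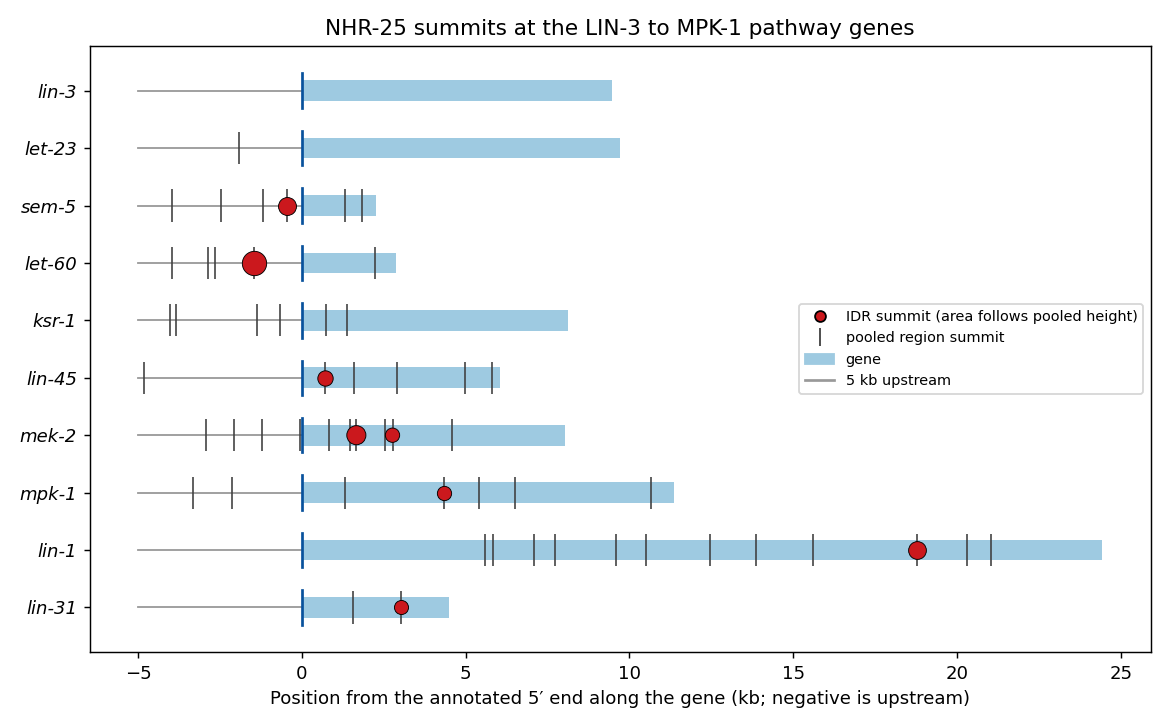
Summits at each of the 10 genes, by position from the annotated 5′ end in kb, with upstream sequence as a grey line and the gene as a blue bar. Red circles are IDR summits, with an area that follows the pooled height, and black ticks are summits of all pooled regions. The 2 upstream circles belong to sem-5 and let-60, the other 6 lie inside genes, and lin-3, let-23 and ksr-1 have none.

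These shares depend on length, since longer windows hold more summits. The windows of the 10 genes had a median of 13089.5 bp, against 7027 bp for all genes. Per length, the members' windows held 0.585 IDR summits per 10 kb, against 0.544 for the windows of the other protein-coding genes and 0.50 for the nuclear genome. With upstream sequence included, the density at these genes was thus close to that elsewhere. Among windows of 5 to 10 kb, 3 of 3 members had a summit, against 27.6% of all genes with windows of that length. Among those of 10 to 15 kb, 2 of 5 did, against 40.5%. The only member with a window of 15 to 20 kb had a summit (39.4% of all such genes), as did the only one over 20 kb (53.7%). Inside the genes alone the density was 0.692 per 10 kb (6 summits in 86764 bp), against 0.274 in the bodies of the other genes. By gene length, 2 of 2 members of 4 to 8 kb had a summit inside, against 12% of all genes of that length. Of the members of 8 to 12 kb, 2 of 5 did (16.1% of all such genes), and so did the only member over 12 kb, lin-1 (30.2%). Neither of the 2 members under 4 kb, sem-5 and let-60, had one (3.0%). The members are few and no test was applied to these shares.

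**Figure D2:**
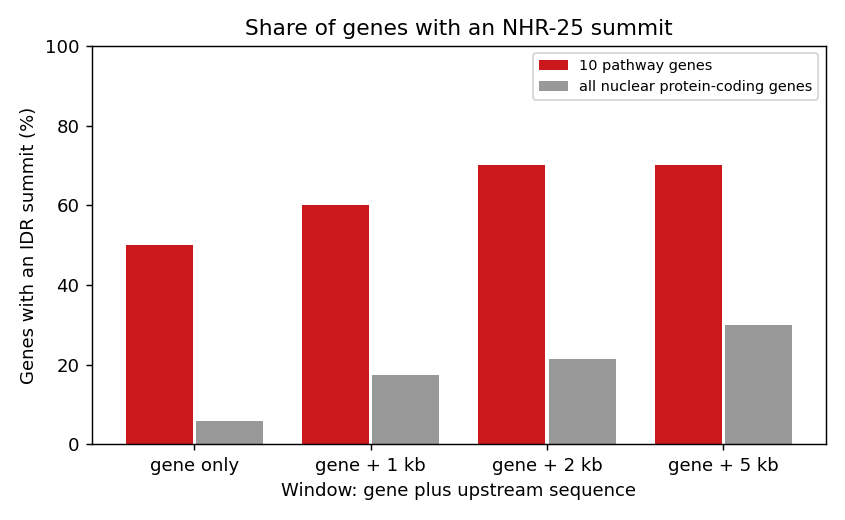
Percent of genes with at least 1 IDR summit, for the 10 pathway genes (red) and all nuclear protein-coding genes (grey), as the window grows from the gene alone to the gene with 5 kb upstream. The red bars stand for 5, 6, 7 and 7 genes, and the grey bars grow from 5.77% to 29.9%.

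A peak's height is the authors' own value per peak. No source used here gives its scale, so it was used only to rank and describe peaks. Pooled heights in the IDR list ran from 42.2 to 920, with a median of 74.3, and the list is exactly the highest of the 30000 pooled regions. The 8 summits at the pathway genes had pooled heights from 50.5 to 151, with a median of 70.6, and 4 of them were in the upper part of the list, above its middle rank. Their ranks had a median of 2781.5, and their heights lay around the middle of the list. The strongest pooled region in the window, whether or not in the IDR list, had a median height of 56.2 over the 10 genes, against 15.4 over all genes, whose windows are shorter. Genes with no pooled region counted as 0 in these medians, lin-3 among the members and 5903 of all genes.

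The ligand gene lin-3 (chromosome IV from 11054308 to 11063768, plus strand) had the least signal of all members. No pooled region and no region of replicate 1 had its summit in the 14461 bp examined. Replicate 2 had a single region, with a height of 6.68 and rank 18123 of 30000, 480 bp inside the gene. Of all nuclear protein-coding genes 70.4% had a pooled region in such a window, as did the other 9 members. An enhancer in an intron of lin-3 is known to drive its expression in the anchor cell and is known to hold E-boxes, the sites of HLH-2. The E-box CACCTG was found 8 times in the lin-3 window on either strand, and only 1 pair of copies lay within 60 bp of each other. That pair, 4853 bp from the 5′ end, lay in an intron of 1530 or 1536 bp in all annotated transcripts that span it. It is shown because a peak there would have borne directly on the ligand gene (ce11, chrIV:11059161-11059218, plus strand, E-boxes in capitals); the pair was picked out after the sequence had been searched.
lin-3 E-box pair: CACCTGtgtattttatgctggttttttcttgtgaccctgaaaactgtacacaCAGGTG

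The closest match to TCAAGGTCA, the full element of the SF-1/FTZ-F1 family, between these E-boxes was TCAGGGTCA on the minus strand. It differs by A4G, counted from 1 at the 5′ end of TCAAGGTCA. The nearest IDR summit was 22790 bp from the middle of the pair and the nearest pooled summit 11999 bp. The nearest summit of replicate 1 was 12007 bp away and that of replicate 2, the single region named above, 4401 bp. The family's core element CAAGGNC occurred 4 times in the lin-3 window, all between 1358 and 3098 bp upstream of the gene. None lay within 60 bp of an E-box CACCTG. This pattern does not match TCAGGGTCA, so its absence near the E-boxes does not show that a site of the family is lacking there. No peak was thus listed at this pair in L3 larvae, in any list. Whether a signal from a single cell of the animal can be detected in whole larvae was not tested, and the read depth is unknown.

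The receptor gene let-23 (chromosome II from 9197512 to 9207213, plus strand) had no IDR summit either. Its single pooled region, at summit 9195598 and 1914 bp upstream, had a height of 20.6 and rank 10384, below the IDR limit of 42.2. In replicate 2 the matching region had a height of 13.7 and rank 8434, and replicate 1 listed none within 100 bp. The summit lay closer to the 5′ end of the neighbouring gene twk-4, which runs the other way, at 1303 bp upstream of it. The let-23 window held no CAAGGNC on either strand.

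The adaptor and Ras genes carried the only upstream peaks. The peak of let-60 was the highest of the 8, with a pooled height of 151 and rank 704. Replicate 1 gave it a height of 60.7 (rank 1043) and replicate 2 a height of 84.8 (rank 680). It spans 11692384 to 11692733 on chromosome IV, with its summit at 11692559, 1471 bp upstream of let-60 and within the non-coding gene ZK792.10. Its nearest protein-coding 5′ end was not that of let-60 but that of ZK792.12, 1234 bp away on the plus strand, and the summit lay in the windows of 4 protein-coding genes. The peak of sem-5, the adaptor gene of the Grb2 type, had a pooled height of 82.3 and rank 2182. Its heights were 31.9 in replicate 1 (rank 3123) and 49.2 in replicate 2 (rank 1852). It spans 7961996 to 7962345 on X, with its summit at 7962171, in intergenic sequence 448 bp upstream of sem-5, whose 5′ end is the nearest. Both peaks ranked high enough in each replicate to be within the number of peaks of the IDR list, and in both the replicate summits lay within 19 bp of the pooled one.

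The sequences at these summits are shown because they are the only peaks in a member's promoter window as drawn from the gene's annotated 5′ end. Each covers 50 bp of ce11 to either side of the summit, on the plus strand. Neither held CAAGGNC within 100 bp of its summit. The capitals in the let-60 sequence mark GAGAAGA, a pattern returned to among the other observations, and the sem-5 sequence, at chrX:7962121-7962221, held neither pattern. The let-60 sequence is at chrIV:11692509-11692609. G and C made up 54.5% of the bases at let-60 and 48.5% at sem-5.
let-60: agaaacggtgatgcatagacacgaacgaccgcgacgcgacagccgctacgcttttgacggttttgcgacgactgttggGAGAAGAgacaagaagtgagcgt
sem-5: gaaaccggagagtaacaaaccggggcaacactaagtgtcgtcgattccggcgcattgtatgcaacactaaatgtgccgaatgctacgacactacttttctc

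Among the kinase genes, the Raf gene lin-45 (chromosome IV from 6742537 to 6748572, minus strand) had a peak at internal transcript starts. Its pooled height was 60.4 (rank 3326), with 36.2 in replicate 1 (rank 2585) and 23.6 in replicate 2 (rank 4828). The summit, 6747861, lay 711 bp inside the gene as annotated, in the first intron of transcripts Y73B6A.5b.1 and Y73B6A.5c.1. lin-45 has 6 annotated transcripts, each with its own 5′ end. The summit was 22 bp inside transcript Y73B6A.5d.1, in its untranslated first exon, 81 bp upstream of Y73B6A.5e.1 and 457 bp upstream of Y73B6A.5a.1. Counting every transcript's 5′ end, lin-45 joins let-60 and sem-5 as a gene with a promoter summit, which makes 3 of 10 members against 19.7% of all genes.

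The MEK gene mek-2 was the only member with 2 IDR summits, and both sat beside a gene nested in its intron. It runs on the minus strand of chromosome I from 3005403 to 3013448, and intron 3, of 3838 bp, holds the cuticle collagen gene col-48 on the plus strand (3010684 to 3011665). The taller peak, with its summit at 3011782, had a pooled height of 93.3 (rank 1777), with 42.1 in replicate 1 (rank 2009) and 49.6 in replicate 2 (rank 1828). It lay 117 bp past the 3′ end of col-48 and 1666 bp inside mek-2. The other, with its summit at 3010679, lay 5 bp upstream of the 5′ end of col-48. Its pooled height was 52.4 (rank 3970), with 36 in replicate 1 (rank 2618) and 14.2 in replicate 2 (rank 8082). Of the starts of protein-coding genes, that of col-48 was the nearest to both. The next region in the mek-2 window, 217 bp upstream of the 5′ end of nobh-1, had a pooled height of 21.5 and rank 9935, outside the IDR list.

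The ERK gene mpk-1 (chromosome III from 4216763 to 4228108, minus strand) had a peak that differed between the replicates. Its pooled height was 51.9 (rank 4020), with 10.7 in replicate 1 (rank 12587) and 34 in replicate 2 (rank 3145). The summit, 4223764, lay 4344 bp inside the gene, in a first intron of 8247 bp shared by both long transcripts. It lay 4121 bp upstream of the 5′ end of the short transcript F43C1.2a.2. No other protein-coding gene window held this summit, and no 5′ end of another gene was nearer. The scaffold gene ksr-1 (X from 8275169 to 8283301, plus strand) fell just short of the IDR list. Its strongest pooled region had a height of 37.9 and rank 5560, with 9.92 in replicate 1 (rank 14057) and 25.7 in replicate 2 (rank 4400). That summit, 4032 bp upstream of ksr-1, lay 116 bp upstream of cutl-29, which runs the other way. The next, 1366 bp inside ksr-1, had a pooled height of 31.1 and rank 6803, with 17.2 in replicate 1 (rank 6741) and 12.3 in replicate 2 (rank 9343).

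**Figure D3:**
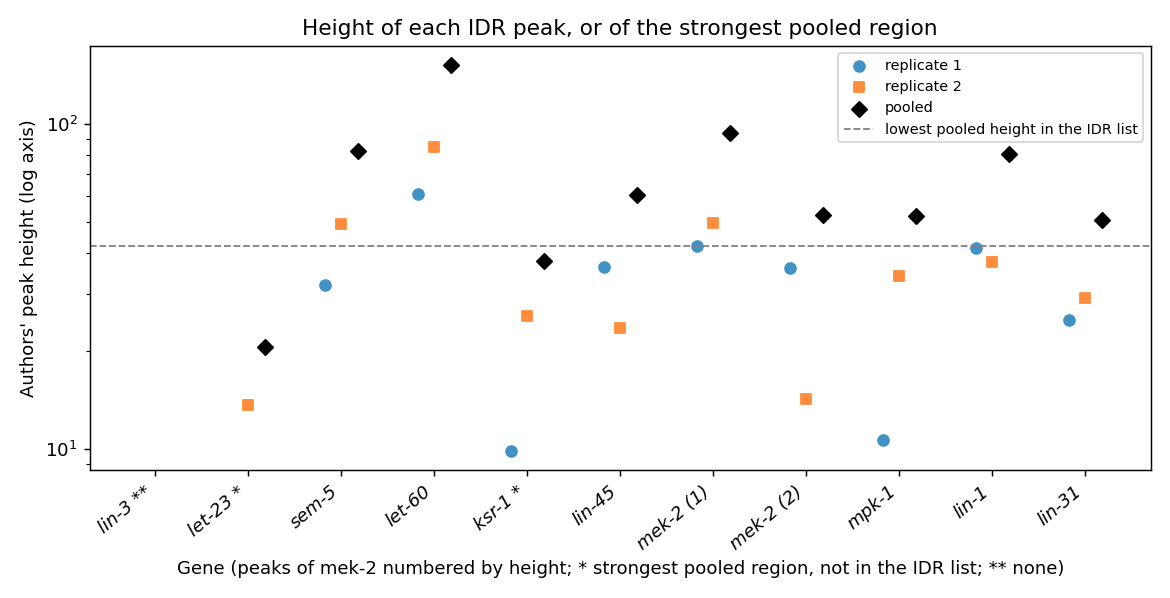
The authors' peak height (log axis) of each IDR peak at the pathway genes in replicate 1, replicate 2 and the pooled list, and of the strongest pooled region for let-23 and ksr-1, which have no IDR peak. lin-3 has no pooled region. The dashed line is the lowest pooled height of the IDR list, 42.2; let-60 is highest at 151, and among the IDR peaks, mpk-1 and the second mek-2 peak show the widest gaps between replicates.

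Both transcription factor genes had a peak deep inside the gene. lin-1 encodes an ETS factor that restrains vulval fates until MPK-1 acts on it, and it is the longest member at 24426 bp (chromosome IV from 2275861 to 2300286, minus strand). Its IDR peak had a pooled height of 80.8 (rank 2237), with 41.5 in replicate 1 (rank 2049) and 37.7 in replicate 2 (rank 2756). The summit, 2281519, lay 18767 bp from the 5′ end, in a second intron of 20948 bp, and 2338 bp upstream of the start of the short transcript C37F5.1b.1. The next region of lin-1, 10506 bp from the 5′ end, missed the IDR list narrowly, with a pooled height of 41.5 and rank 5106. In all, 12 pooled regions had summits in the lin-1 window, all inside the gene, more than at any other member. That window was also the longest, at 29426 bp, while the mek-2 window of 13046 bp held 10.

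lin-31 encodes a forkhead factor needed for the fates of vulval precursor cells (chromosome II from 3982549 to 3987029, plus strand). Its peak had a pooled height of 50.5 (rank 4143), the lowest of the 8, with 24.9 in replicate 1 (rank 4325) and 29.2 in replicate 2 (rank 3766). The summit, 3985575, lay 3026 bp inside the gene in intron 3, of 2130 bp. The nearest protein-coding 5′ end was that of K10G6.5, 1675 bp away. This was the only one of the 8 summits with CAAGGNC within 100 bp, in the form CAAGGCC on the minus strand, centred 32 bp from the summit. The sequence is shown for that match, at ce11 chrII:3985525-3985625, plus strand, with the match in capitals as it reads on that strand.
lin-31: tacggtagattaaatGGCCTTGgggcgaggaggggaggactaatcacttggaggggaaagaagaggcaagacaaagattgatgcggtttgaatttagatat

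The core element was thus near 1 of 8 summits at the pathway genes, against 560 of all IDR summits (11.2%). Windows of the same width centred 1000 bp to either side of all IDR summits held it in 4.15% (left) and 3.97% (right). For the 8 summits at the pathway genes, 0 of these windows on the left held it and 4 on the right, more than at the summits themselves. The full element TCAAGGTCA was near none of the 8, against 0.957% of all IDR summits, and occurred nowhere in the 136764 bp examined. Across the 10 windows CAAGGNC occurred 16 times, or 1.17 times per 10 kb, against 1.56 per 10 kb in the nuclear genome. let-23, let-60 and ksr-1 had no copy. Both patterns were searched on both strands, and every copy of the full element is also one of the core. An absent match says only that these letters are not in the window.

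Replicate heights differed between the peaks in both directions. Each of the 8 peaks had a match within 100 bp in both replicates. Most peaks of the IDR list did too, 4688 in all, so this does not set the 8 apart. Of the 8, 6 ranked within the number of IDR peaks in both replicates, against 69.5% of all IDR peaks. The exceptions were mpk-1, below that rank in replicate 1, and the weaker mek-2 peak, below it in replicate 2. The log2 ratio of replicate 2 to replicate 1 was 1.67 at mpk-1 and -1.34 at the weaker mek-2 peak. It lay between -0.62 and 0.62 at the other 6. Over the 4688 IDR peaks matched in both replicates its median was 0.11, with an SD of 0.73 across peaks, and 97.9% of them had a lower ratio than mpk-1 while 2.77% had a lower one than the weaker mek-2 peak. Over the 1516 matched peaks of pooled height from 42 to 61, which take in mpk-1 and this mek-2 peak, the SD was 0.88, and 96.9% had a lower ratio than mpk-1 and 6.13% a lower one than the weaker mek-2 peak. With 2 samples, no test of a difference between them was possible.

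**Figure D4:**
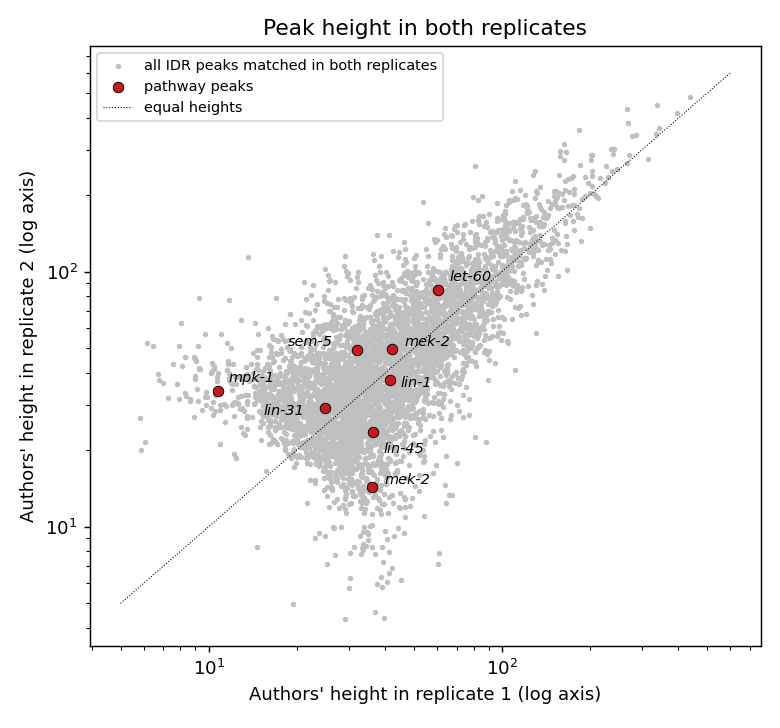
The authors' height in replicate 1 (x, log axis) and replicate 2 (y, log axis) for the 4688 IDR peaks matched in both replicates (grey) and the 8 peaks of the pathway genes (red), with a dotted line of equal heights. mpk-1 lies far above the line at 10.7 and 34, and the weaker mek-2 peak below it at 36 and 14.2.

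Since 5 kb of upstream sequence can hold other genes, each summit was also given to its nearest protein-coding 5′ end. By that rule 3 of the 10 genes, sem-5, lin-45 and mpk-1, were the nearest to an IDR summit, against 17.8% of all genes. The summits at let-60, mek-2, lin-1 and lin-31 went to other genes, although those of mek-2, lin-1 and lin-31 lay inside the member. With the 5′ ends of every transcript counted, lin-1 joined them through its short transcript, which made 4 of 10, against 17.5% of all genes. Heights alone do not show which gene a peak acts on.

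Other genes of the pathway and of vulval fates were counted in the same way. Of 23 further pathway genes, such as exchange factors, GTPase-activating proteins, phosphatases and proteins that localize the receptor, 13 had an IDR summit in the gene or 5 kb upstream (56.5%), beside 7 of the 10 core members and 29.9% of all genes. A promoter summit was found for 10 of the 23 (43.5%), beside 2 of the 10 core members and 18.4% of all genes. A summit inside the gene was found for 2 of the 23 (8.70%), beside 5 of the 10 core members and 5.77% of all genes. Of 21 genes of vulval fates and the anchor cell, 8 had a summit in the gene or 5 kb upstream (38.1%), 3 in the promoter window (14.3%) and 3 inside the gene (14.3%), to be read against the same shares of all genes. These lists are short and the differences between them were not tested.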

How the data were processed

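NHR-25 ChIP-seq of L3 larvae was analysed from the deposited ce11 peak lists of 2 biological replicates. Per the deposited index text, replicate and pooled lists (30000 regions each, background included) were made from alignments and a control, and the IDR list from these. No source used here names the aligner or caller, or says whether the replicates were separate cultures. The authors deposited a signal (height) and a q-value on the −log10 scale per region; q-values were not used. Read depth is unknown. Lists on ce10 were not used here.

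Genes came from Ensembl release 115 (WBcel235, the ce11 assembly) and sequences from the RefSeq genome of that assembly. Positions are 1-based, and annotated 5′ ends were used although many worm transcripts are trans-spliced. Summits were counted in each gene plus 5 kb upstream, in promoter windows (2000 bp upstream, 200 bp downstream) and by nearest 5′ end. Replicate summits were matched within 100 bp. No region was identical between replicates. Patterns were searched within 100 bp of summits. Counting was tested on simulated summits, and all 200 were recovered. Python 3.11.15 with pandas 2.3.3 was used.

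Members and lists were chosen with earlier results of these data known; 23 of 24 and 21 of 22 listed genes matched by symbol. All members were named with up to 4 IDR peaks, other genes only where a summit lay in them or nearest their 5′ end. No set test was run. Alternatives were other windows, thresholds, replicates, distances and patterns.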

Additional observations from a re-analysis of the deposited data

How the results depend on the processing

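The count of members with a summit was 7 with 2 kb upstream (21.5% of all genes) or with the upstream part ended at the next gene (20.4%), 6 with 1 kb (17.5%), 5 in the gene alone (5.77%) and 8 in the pooled list taken to 2 times the IDR number (43.1%). It was 4 in the upper part of the IDR list, split at its middle rank (let-60, lin-1, mek-2 and sem-5), against 18.3% of all genes. With as many top peaks of a single replicate in place of the IDR list it ran from 6 (replicate 1, without mpk-1; 29.3% of all genes) to 8 (replicate 2, with ksr-1; 29.4%). The number of summits was 4 in that upper part and 15 in the doubled pooled list. No density over all genes is set beside these summit counts, so they say nothing particular to the members. Members with a promoter summit were 1, sem-5, with either shorter window (1000 bp upstream or less), since the let-60 summit lies farther away. The share of all genes was not computed for these shorter windows, so this count has no background beside it. Of the 8 summits, 2 kept a rank above that middle rank in both replicates. The share of all IDR peaks that did so was not computed. TCAAGGTCA was near 0 of the 8 summits. The absence of an IDR peak at lin-3, let-23 and ksr-1 is a statement about these lists only, and let-23 and ksr-1 did have pooled regions. Depth is unknown, and its bearing on this absence was not tested.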

Other observations

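Read side by side, some but not all of the summit sequences held a short purine run. GAGAAGA, on either strand, lay within 100 bp of 5 of the 8 summits: let-60 (31 bp from the summit), lin-45 (16 bp), the weaker mek-2 peak (20 bp), lin-1 (26 bp) and mpk-1 (87 bp). It was near 13.5% of all IDR summits, and in 6.78% and 5.80% of the windows 1000 bp to the left and right of them. For the 8 summits at the pathway genes, 2 of these windows on the left held it and 0 on the right. Within 50 bp it was near 4 of the 8, a distance at which the share of all IDR summits was not computed. The pattern was picked from these same sequences, after the data were seen, so the count at the pathway genes is no support for it and was not tested.

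The copy of CAAGGNC in a member's window nearest to an IDR summit lay 32 bp away at lin-31, 353 bp at mek-2, 909 bp at lin-45, 958 bp at lin-1, 1000 bp at mpk-1 and 2091 bp at sem-5. The let-60 window holds no copy.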
